A study of Homo sapiens with 12 samples.

Results

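Gene-level FPKM (fragments scaled to gene length and a library size factor) was tabulated for NCM460 cells, a human line labelled as normal colonic epithelium. The adhesion genes described here are 10 of the 58735 genes in that table. They were taken by symbol and comprise *ICAM1* and *VCAM1*, which encode immunoglobulin-family counter-receptors for leukocyte integrins, the α subunit genes *ITGA2*, *ITGA3*, *ITGA5*, *ITGA6* and *ITGAV*, and the β subunit genes *ITGB1*, *ITGB4* and *ITGB6*. RNA was measured in 12 libraries, 3 in each of 4 groups. Cells of wild-type genotype received medium alone, TNF-α, or TNF-α together with 5-OH-TMT (labelled Bufotenidine), a quaternary tryptamine related to serotonin. The last group received TNF-α and carried a knockdown of *HTRA2*, which encodes a mitochondrial serine protease. TNF-α was thus common to all groups except medium. The labels give no dose or time, and they do not say whether the libraries came from separate cultures, whether the knockdown libraries shared an siRNA, or whether the TNF-α cells received a control siRNA. The p-values therefore measure the spread between these libraries, which may be technical, and knockdown cannot be told apart from transfection.

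On hg38 (GENCODE 29) *ICAM1* spans chromosome 19 from 10270835 to 10286615 and *VCAM1* chromosome 1 from 100719742 to 100739045, both on the plus strand. *ITGB6* spans chromosome 2 from 160099666 to 160200313 and *ITGA5* chromosome 12 from 54395261 to 54419460, both on the minus strand. *ITGA6* and *ITGAV* lie on chromosome 2 as well, *ITGA3* and *ITGB4* on chromosome 17, *ITGA2* on chromosome 5 and *ITGB1* on chromosome 10.

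Integrins are surface receptors built from an α and a β chain, and the pairing decides which ligand is bound. α2β1 binds collagen, α3β1 and α6β4 bind laminin, α5β1 binds fibronectin, and αVβ6 binds the latency peptide of TGF-β as well as fibronectin. In gut epithelium α6β4 anchors cells to the basement membrane through hemidesmosomes, αVβ6 is known from injured or inflamed epithelium, and *ICAM1* and *VCAM1* are textbook targets of NF-κB, the transcription factor that TNF-α activates. Protein, surface display and chain pairing were not measured here.

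Sequence upstream of the start is shown for the 4 members that were called higher with *HTRA2* knockdown than with TNF-α alone (*VCAM1* in a fit without a minimum level), so that the letters before their starts can be read beside their levels. The RefSeq promoter table (GRCh38.p14) held 8 of the 10 members. *ITGA3* and *ITGB4* had no entry. The 250 bases before the RefSeq start were searched on both strands for an NF-κB pattern (GGGA, any 4 bases, then CC), an AP-1 pattern (TGANTCA), a GAS (interferon-γ-activated sequence) pattern (TTCNNNGAA) and the SP1 box (GGGCGG). A further pattern, GGAANTTCC, was added after the *ICAM1* sequence had been seen. Each run is given 5′ to 3′ on the gene's own strand, with every matched base in capitals. They lie at chr19:10270870-10271119 (plus strand) for *ICAM1*, chr1:100719492-100719741 (plus strand) for *VCAM1*, chr12:54419267-54419516 (minus strand) for *ITGA5* and chr2:160200273-160200522 (minus strand) for *ITGB6*. RefSeq starts can differ from the GENCODE 29 spans given above. The *ICAM1* window lies wholly inside the gene span, and the *ITGA5* and *ITGB6* windows overlap theirs in part. The *VCAM1* window ends just before its span. Of the windows not shown, both of *ITGB1* and that of *ITGAV* from 186599955 to 186600204 also lie inside the gene span. The *ITGA2* window and that of *ITGA6* from 172427336 to 172427585 overlap theirs in part.
ICAM1: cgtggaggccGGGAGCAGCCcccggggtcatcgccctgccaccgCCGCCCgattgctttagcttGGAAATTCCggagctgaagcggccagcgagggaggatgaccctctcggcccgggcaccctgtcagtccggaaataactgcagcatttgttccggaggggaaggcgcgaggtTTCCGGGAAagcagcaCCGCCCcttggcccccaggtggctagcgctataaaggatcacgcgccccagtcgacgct
VCAM1: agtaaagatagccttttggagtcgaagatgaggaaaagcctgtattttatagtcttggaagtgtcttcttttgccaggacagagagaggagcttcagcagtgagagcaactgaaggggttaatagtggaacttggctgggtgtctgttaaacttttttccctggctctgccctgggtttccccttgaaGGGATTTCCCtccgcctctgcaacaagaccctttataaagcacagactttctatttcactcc
ITGA5: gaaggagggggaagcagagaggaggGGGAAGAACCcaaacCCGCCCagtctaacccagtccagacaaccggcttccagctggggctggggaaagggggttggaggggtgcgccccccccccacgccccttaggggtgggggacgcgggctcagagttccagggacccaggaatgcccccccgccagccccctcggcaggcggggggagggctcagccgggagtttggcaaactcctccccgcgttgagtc
ITGB6: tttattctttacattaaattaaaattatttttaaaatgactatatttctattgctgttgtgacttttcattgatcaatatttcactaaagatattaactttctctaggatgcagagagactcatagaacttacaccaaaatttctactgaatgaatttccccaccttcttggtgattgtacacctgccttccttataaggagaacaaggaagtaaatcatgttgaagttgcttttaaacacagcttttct

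The table lists 11 starts for the 8 matched members. The NF-κB letters were found before 5 of these 11 starts, each of another member, against 22.6% of the 35116 promoters in the table. In *VCAM1* they read GGGATTTCCC, 62 to 53 bases before the start, and matched on both strands. In *ICAM1* they lay 240 to 231 bases before the start, in *ITGA5* 225 to 216 bases, and *ITGB1* and *ITGAV* held them at 1 of their 2 listed starts. For *ITGAV* this was the start inside the gene span. The GAS letters stood in *ICAM1* alone among the matched members, 75 to 67 bases before the start, against 6.57% of all promoters. The added pattern also stood in *ICAM1* alone, as GGAAATTCC 186 to 178 bases before the start. It was chosen with that sequence in view, so its presence there was fixed in advance. Of all promoters 0.826% held it. SP1 boxes preceded 5 of the 11 starts, against 42.6% of all promoters, a share near the background, with 4 boxes in *ITGA2*. No AP-1 letters lay wholly within these windows, against 6.57% of all promoters, and TGAGTCA crossed the *ITGA5* start with 6 of its 7 letters before it. *ITGB6* held none of the patterns. No matches overlapped each other. A match describes letters and does not show that a factor bound there. Sites whose letters differ from these patterns would be missed, so a lack of matches does not show that a site is absent.

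The libraries held 31008429 to 37624399 reads on genes. *HTRA2* stood at 7.18 to 7.44 FPKM in the knockdown libraries and at 13.3 to 17.2 FPKM in the others, and *TNFAIP3*, a TNF-α target, rose from a mean of 1.22 FPKM in medium to 28.3 FPKM with TNF-α. Of the 6 general epithelial markers, *KRT8*, *KRT18*, *CDH1*, *EPCAM* and *CLDN4* stood at 37.96 to 1315 FPKM and *KRT19* at 1.91 to 4.35 FPKM, whereas the colonocyte markers *VIL1*, *CDX1*, *CDX2*, *LGALS4* and *FABP1* summed to at most 0.194 FPKM in any library, so the colonic label was not borne out by these genes. *CDX2* had no read in any library, which allows up to 3 reads each. Knockdown library 2 had a mitochondrial read share of 2.95%, against 3.69% to 4.68% in the other 11. The libraries also differed in how level varied with GC content (the share of G and C in a gene's longest transcript). The slope of log2 level per 10 percentage points of GC was −0.08 to −0.03 in the TNF-α libraries and 0.09 to 0.15 in the 5-OH-TMT libraries. It ranged more widely in medium (−0.12 to 0.12) and with knockdown (−0.17 to 0.05), and knockdown library 2 had the lowest slope of all.

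On the per-length FPKM scale *ITGB4* was highest in medium at 234.7 ± 25.1 (SD, n = 3), followed by *ITGA3* at 135.3 ± 11.6, *ITGA6* at 66.7 ± 5.8, *ITGB1* at 34.3 ± 3.4 and *ITGA5* at 30.5 ± 2.1. *ITGA2* stood at 10.9 ± 1.3, *ITGAV* at 5.63 ± 1.32, *ITGB6* at 3.31 ± 0.54 and *ICAM1* at 3.06 ± 0.39. The hemidesmosome pair *ITGA6* and *ITGB4* and the laminin receptor chain *ITGA3* thus led the family before any stimulus. *VCAM1* had no read in medium. Because its mean over the 12 libraries was under the minimum of 0.1 FPKM, 9 members entered the test across 18079 genes, and *VCAM1* is given by its reads.

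**Figure D1:**
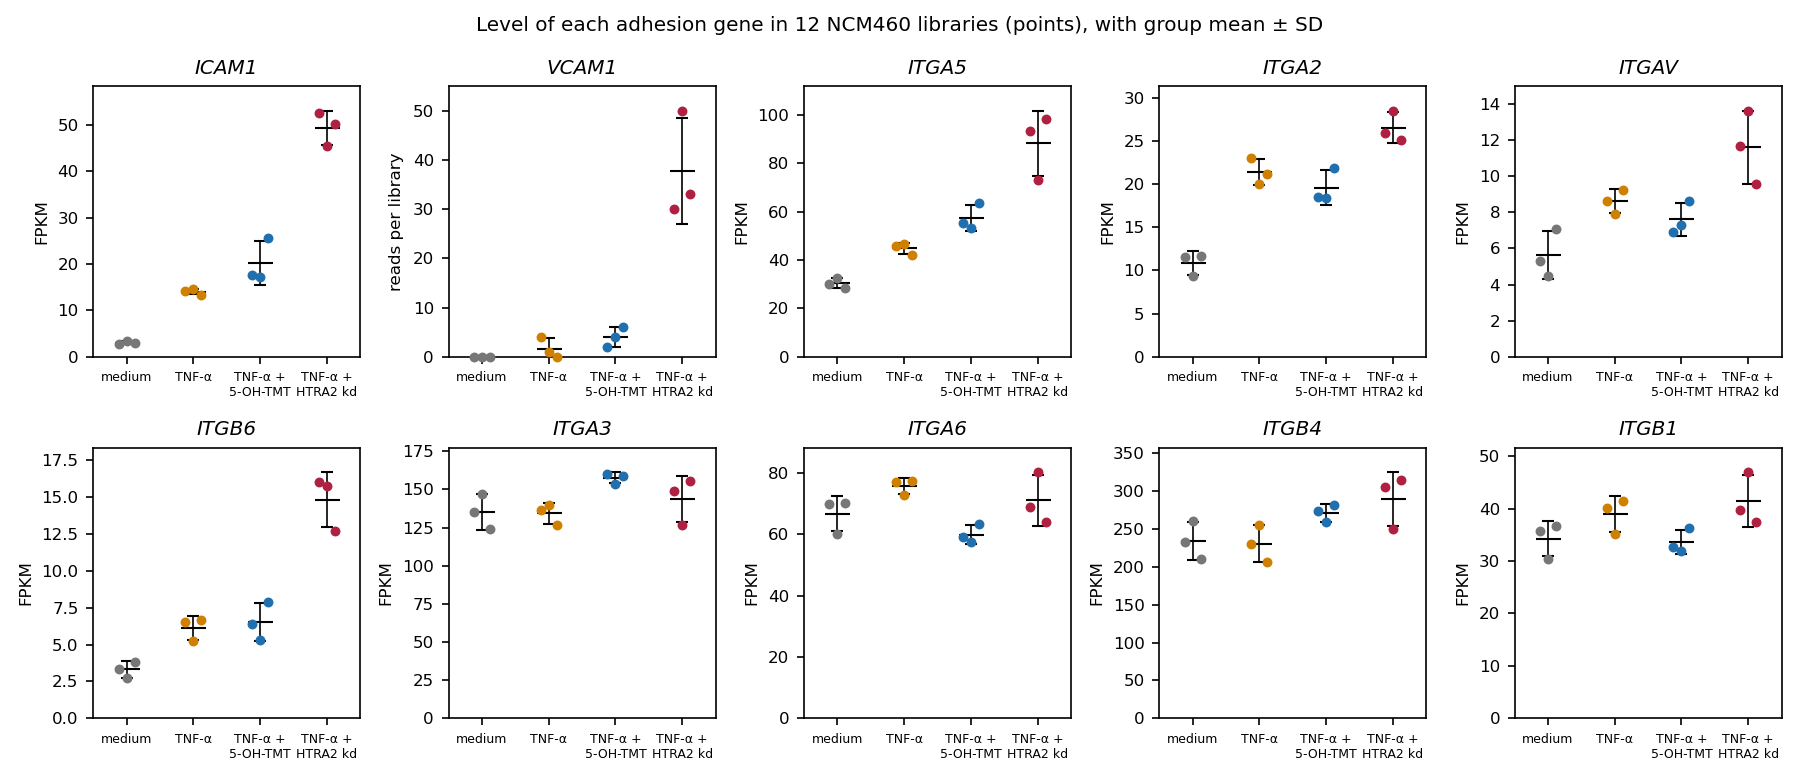
Level of each member in the 12 libraries (points), with the group mean and SD (bars), in FPKM, or in reads for *VCAM1*. The knockdown libraries lie above all other libraries for *ICAM1*, *VCAM1*, *ITGA5*, *ITGA2*, *ITGAV* and *ITGB6*, whereas for *ITGA3*, *ITGA6*, *ITGB4* and *ITGB1* groups with neighbouring means overlap.

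The question of the first comparison was which adhesion genes respond to TNF-α. *ICAM1*, *ITGA2*, *ITGB6* and *ITGA5* rose, and no member fell. A gene was called where limma, fitted to log2(FPKM + 0.1), gave a Benjamini-Hochberg adjusted p under 0.05. Thus 4 of the 9 tested members were called higher, against 3.22% of all tested genes, and 0 were called lower, against 0.885%. The 5 members with an unadjusted limma p under 0.05 were all higher, and 14.8% of all genes had such a p in either direction. Under the study's own rule (a 2-fold or larger change whose unadjusted p is 0.05 or lower), 1 member, *ICAM1*, passed, against 2.73% of all genes. In 6 members every TNF-α library was above every medium library, against 11.1% of all genes, and in 0 every one was below, against 8.74%. The median log2 difference of the 9 was 0.55, beside −0.0020 over all tested genes.

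*ICAM1* measured 2.80, 3.51 and 2.87 FPKM in medium and 14.2, 14.5 and 13.4 FPKM with TNF-α. The groups lay far apart, and the log2 difference was 2.17 ± 0.14 (SE), with an adjusted p of 2.16e-06. *ITGA2*, the collagen-binding chain, measured 11.5, 9.30 and 11.7 FPKM in medium and 23.0, 20.04 and 21.2 FPKM with TNF-α. Its groups did not overlap either, with a log2 difference of 0.98 ± 0.10 and an adjusted p of 1.31e-04. *ITGB6*, the β chain that pairs only with αV, measured 3.38, 2.74 and 3.82 FPKM in medium and 6.51, 5.22 and 6.68 FPKM with TNF-α. Every TNF-α library was above every medium library, and the log2 difference was 0.87 ± 0.16 (adjusted p = 0.00829).

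*ITGA5*, the fibronectin receptor chain, measured 30.3, 32.8 and 28.6 FPKM in medium and 45.8, 46.5 and 42.3 FPKM with TNF-α. The groups were separate and the log2 difference was 0.55 ± 0.11 (adjusted p = 0.0112). This call did not hold when medium library 3, TNF-α library 1 or TNF-α library 2 was left out, with adjusted p of 0.0503, 0.0504 and 0.0549. *ITGAV*, the partner of *ITGB6*, measured 5.33, 4.49 and 7.07 FPKM in medium and 8.65, 7.92 and 9.24 FPKM with TNF-α. Its groups did not overlap, yet its log2 difference of 0.63 ± 0.16 missed the threshold (adjusted p = 0.0562). It was called without medium library 3 (adjusted p = 0.0137), with a minimum of 1 FPKM (0.0280) and with voom on recovered reads (0.0306). Either GC correction also gave a call (0.00821 and 0.0151), and the other alternatives gave none.

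The laminin-binding chains and the common β1 chain were not called. *ITGA3* had a mean of 135.3 FPKM in medium and 134.4 FPKM with TNF-α, a log2 difference of −0.01 with a 95% interval of −0.20 to 0.18. *ITGB4* had means of 234.7 and 230.7 FPKM, a difference of −0.02 (−0.26 to 0.21). *ITGA6* and *ITGB1* differed by 0.19 each, with intervals of −0.01 to 0.38 and −0.04 to 0.41.

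Adding 5-OH-TMT to TNF-α was compared with TNF-α alone, to see whether the compound altered these genes. None of the 9 tested members was called. The count was 0 higher, against 0.0332% of all genes, and 0 lower, against 0.00553%, while 5 members had an unadjusted limma p under 0.05, against 20.1% of all genes. With voom on the recovered reads 0 members were called as well, against 1.31% of all genes in either direction. With the fit restricted to the groups compared 1 was (*ITGA6*, adjusted p = 0.0414), against 5.04% of all genes. No member passed the fold rule, against 1.5% of all genes. All 5-OH-TMT libraries exceeded all TNF-α libraries in 4 members, against 16.3% of all genes, and fell short of them in 1, against 15.5%.

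*ICAM1* measured 17.6, 17.2 and 25.7 FPKM with 5-OH-TMT, each above the 13.4 to 14.5 FPKM of TNF-α alone. The third library was well above the other two, and the log2 difference of 0.50 (95% interval 0.19 to 0.80) had an adjusted p of 0.113. *ITGA5* measured 55.5, 53.1 and 63.5 FPKM, also without overlap with TNF-α alone, for a log2 difference of 0.35 (0.12 to 0.59) and an adjusted p of 0.129. *ITGA6* went the other way, with 59.2, 57.4 and 63.2 FPKM against 77.2, 72.8 and 77.3 FPKM. Its log2 difference was −0.34 (−0.53 to −0.14) and its adjusted p 0.103. *VCAM1* had 2, 4 and 6 reads, against 4, 1 and 0 with TNF-α alone, a ratio of 2.37 whose exact 95% interval of 0.776 to 8.57 covers counting error only.

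In this comparison members of high GC share had positive differences, and those of low GC share had negative ones, except *ITGB6* (40.1% GC, 0.08 log2). *ITGB4* (63.7% GC) and *ITGA3* (61.3%) differed by 0.24 and 0.23 log2, while *ITGB1* (40.0%), *ITGA2* (40.2%) and *ITGAV* (38.3%) differed by −0.21, −0.13 and −0.18. After each library's linear trend on GC was subtracted, an alternative chosen after seeing the data, those values became −0.01, 0.03, −0.04, 0.03 and 0.02. *ICAM1* then stood at 0.37, *ITGA5* at 0.27, *ITGB6* at 0.25 and *ITGA6* at −0.22, none of them called. Compound and GC slope cannot be told apart between these groups, since the slopes of the 5-OH-TMT libraries all lay above those of the TNF-α libraries.

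**Figure D2:**
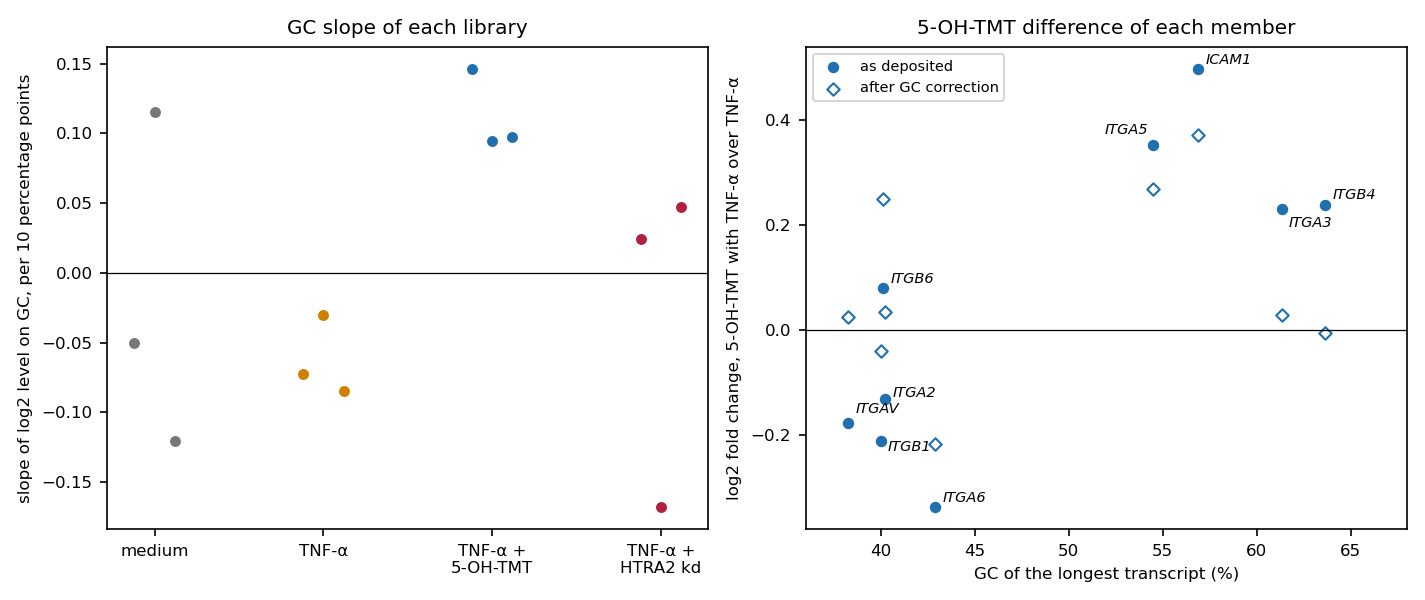
Left, the slope of log2 level on GC content for each library (points), by group. Right, the log2 difference of each tested member with 5-OH-TMT against its GC share, from the FPKM as deposited (filled) and after the GC trend was subtracted (open), where *ITGA3* and *ITGB4* fall from 0.23 and 0.24 to 0.03 and −0.01.

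With *HTRA2* knocked down under TNF-α, *ICAM1*, *ITGB6* and *ITGA5* rose further above TNF-α alone, and *VCAM1* went from at most 4 to at least 30 reads a library. Among the 9 tested members 3 were called higher, against 9.35% of all genes, and 0 lower, against 8.08%. The 6 members with an unadjusted limma p under 0.05 were all higher, and 31.1% of all genes had such a p in either direction. The fold rule passed 2 members, *ICAM1* and *ITGB6*, against 4.23% of all genes. In 5 members every knockdown library was above every TNF-α library, against 17.5% of all genes, and in 0 every one was below, against 16.4%. The median log2 difference of the members was 0.33, beside −0.0034 over all tested genes.

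*ICAM1* measured 52.6, 45.3 and 50.1 FPKM with knockdown, against 13.4 to 14.5 FPKM with TNF-α alone. The lowest knockdown library was thus more than 3 times the highest TNF-α library, and the log2 difference was 1.81 ± 0.14 (adjusted p = 1.47e-05). *ITGB6* measured 16.1, 15.8 and 12.7 FPKM, all above the 5.22 to 6.68 FPKM of TNF-α alone, for a log2 difference of 1.26 ± 0.16 (adjusted p = 3.15e-04). *ITGA5* measured 93.4, 73.0 and 98.5 FPKM, with library 2 the lowest and still above the 42.3 to 46.5 FPKM of TNF-α alone. Its log2 difference was 0.97 ± 0.11 (adjusted p = 1.22e-04).

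*VCAM1* had 30, 50 and 33 reads in the knockdown libraries, 4, 1 and 0 with TNF-α alone and 0 in each medium library. The knockdown libraries did not overlap any other, with 113 reads in all against 5 with TNF-α alone. Scaled by the size factors of the libraries, the ratio was 21.9 (exact 95% interval 9.11 to 68.7, counting error only). Against medium the mean was at least 11.5-fold higher, taking 3 reads per library as the most that a count of 0 allows. In the fit without a minimum level its log2 difference from TNF-α alone was 1.32 ± 0.15 (adjusted p = 5.33e-04), a scale on which the added 0.1 FPKM compresses so low a gene. At 0.137 to 0.229 FPKM, *VCAM1* stayed more than 100 times below *ICAM1* in the same libraries.

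*ITGA2* measured 26.0, 28.5 and 25.1 FPKM and *ITGAV* 11.6, 13.6 and 9.54 FPKM, each above every TNF-α library. Neither was called, with log2 differences of 0.31 ± 0.10 (adjusted p = 0.0622) and 0.41 ± 0.16 (adjusted p = 0.104). *ITGB4* measured 305.6, 249.6 and 314.8 FPKM and overlapped TNF-α alone through library 2. Its log2 difference of 0.33 ± 0.11 had an adjusted p of 0.0588, and of 0.0143 without that library. *ITGA3*, *ITGA6* and *ITGB1* differed by 0.09, −0.10 and 0.08, with intervals of −0.10 to 0.28, −0.29 to 0.10 and −0.14 to 0.31. The values of *ICAM1*, *ITGB6* and *ITGA5* after the GC trend was subtracted, 1.78, 1.29 and 0.95, were close to those above.

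**Figure D3:**
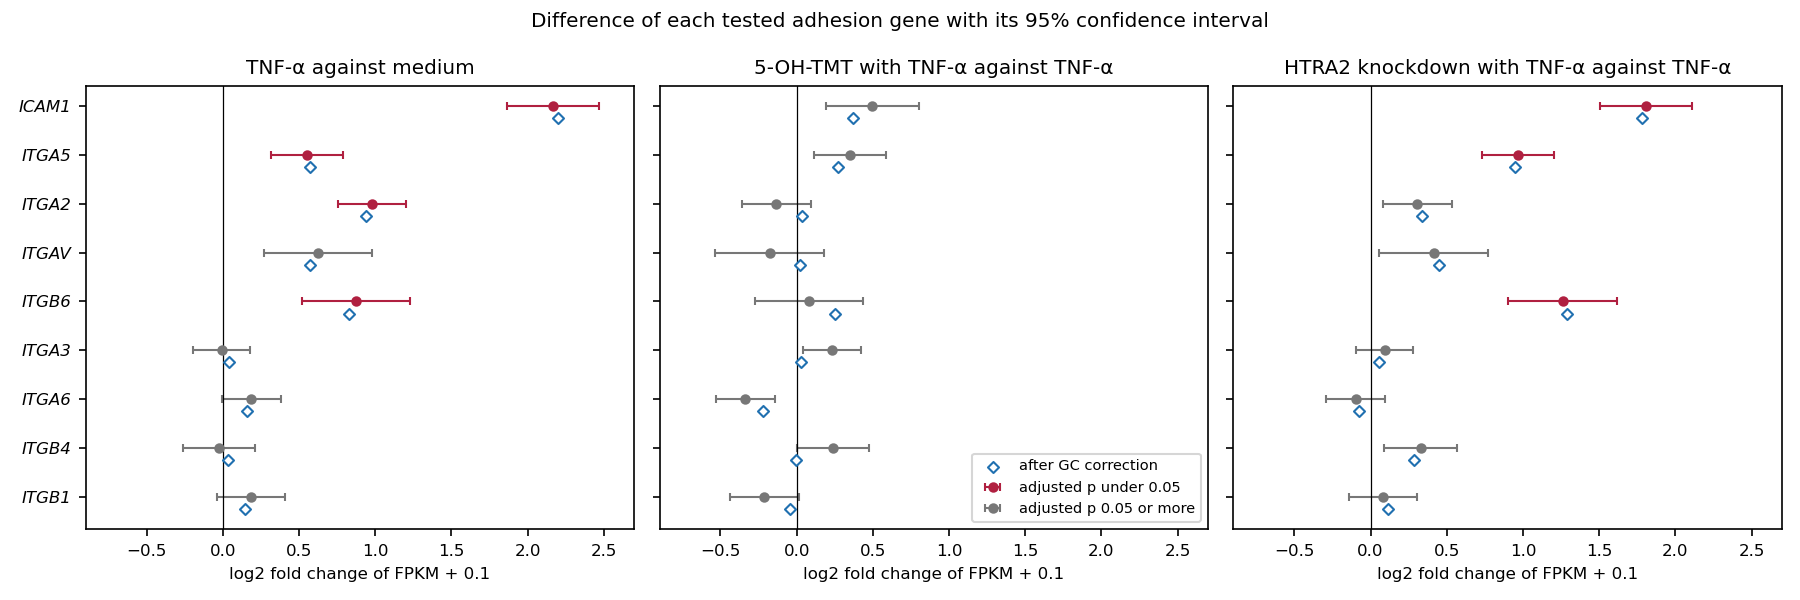
Log2 difference of the 9 tested members in the 3 main comparisons, with 95% confidence intervals (bars), called members in red, and the value after the GC trend was subtracted (open diamonds). *ICAM1*, *ITGA5* and *ITGB6* are called with TNF-α and again with knockdown, and no member is called with 5-OH-TMT.

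Endothelial cells carry *VCAM1* and *ICAM1* too, so the markers of that cell type were summed. The 6 endothelial markers summed to 0.663 to 0.753 FPKM in medium, 1.53 to 1.798 with TNF-α, 1.85 to 2.14 where 5-OH-TMT was added and 2.26 to 3.77 with knockdown. *CDH5* was the highest of them in each library (0.292 to 3.34 FPKM). *KDR* was at 0 in all libraries, and *VWF* and *PECAM1* reached 0.106 and 0.182 FPKM at most. The 6 leukocyte markers summed to 0.240 to 0.533 FPKM in medium, 0.111 to 0.153 with TNF-α, 0.245 to 0.331 where 5-OH-TMT was added and 0.368 to 0.748 with knockdown, with *CD3E* at 0 in all libraries and *CD14* the highest at up to 0.727 FPKM. The 5 fibroblast markers summed to 1.001 to 1.46 FPKM outside the knockdown group and to 2.63 to 3.21 FPKM in it, nearly all from *COL1A1*, with *DCN* at 0. The part of these cell types in the results was not tested. A change in the number of cells of a type cannot be told apart from a change in RNA per cell.

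Across the 4 groups *ICAM1* and *ITGA5* had their lowest mean in medium and their highest with knockdown, and in between 5-OH-TMT stood above TNF-α alone. In each of them the step from TNF-α to 5-OH-TMT was not called, although the libraries did not overlap. *ITGB6* followed that order as well, with TNF-α and 5-OH-TMT overlapping (6.14 ± 0.80 and 6.54 ± 1.30 FPKM). *ITGA2* and *ITGAV* placed 5-OH-TMT between medium and TNF-α, at 19.6 ± 2.0 and 7.61 ± 0.90 FPKM, and overlapped TNF-α alone. For *ITGA3*, *ITGA6*, *ITGB4* and *ITGB1* no neighbours in the order were called and all neighbouring groups overlapped.

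The other contrasts of the design share libraries with those above and are given for the members' own values. Knockdown against medium called 5 members higher (*ICAM1*, *ITGB6*, *ITGA5*, *ITGA2* and *ITGAV*), against 12.9% of all genes, and *ICAM1* had the largest log2 difference among them at 3.97 ± 0.14. 5-OH-TMT with TNF-α against medium called 4 higher (*ICAM1*, *ITGB6*, *ITGA5* and *ITGA2*), against 4.99% of all genes, with log2 differences of 2.66, 0.95, 0.91 and 0.85. Knockdown against 5-OH-TMT called the same 5 as against medium, against 7.85% of all genes, with log2 differences of 1.31 for *ICAM1*, 1.18 for *ITGB6*, 0.61 for *ITGA5*, 0.59 for *ITGAV* and 0.44 for *ITGA2*.

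Because each integrin needs an α and a β chain, the FPKM of chains was set side by side within each library, both for partners and for chains that do not pair. *ITGA2* over *ITGB1* was 0.316 ± 0.009 (SD, n = 3) in medium, 0.551 ± 0.036 with TNF-α and 0.643 ± 0.032 with knockdown. *ITGB6* over *ITGB1*, 2 β chains, was 0.0963 ± 0.0071, 0.157 ± 0.007 and 0.360 ± 0.039 in the same groups. None of the libraries overlapped between these groups, and the exact two-sided permutation p was 0.1 for each ratio against TNF-α, the smallest that 3 against 3 libraries allow. *ITGA5* over *ITGB1*, the fibronectin receptor pair, was 0.902 ± 0.156 in medium and 1.16 ± 0.15 with TNF-α, and these groups overlapped (exact permutation p = 0.2). It was 2.18 ± 0.56 with knockdown, above every TNF-α library (exact permutation p = 0.1). *ITGA2* and *ITGB6* thus gained on the common β1 chain in both comparisons, and *ITGA5* was separate from TNF-α alone with knockdown. With 5-OH-TMT, *ITGA5* and *ITGB6* over *ITGB1* were 1.71 ± 0.04 and 0.193 ± 0.026, also above every TNF-α library (exact permutation p = 0.1 each). *ITGA2* over *ITGB1* was 0.581 ± 0.021 there and overlapped TNF-α alone (exact permutation p = 0.4). For *ITGA5* over *ITGB1*, knockdown library 2 (1.55) lay below every 5-OH-TMT library. The part of the GC slope in these ratios was not tested.

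*ITGAV* over *ITGB6* fell from 1.69 ± 0.14 in medium to 1.41 ± 0.10 with TNF-α and 0.780 ± 0.072 with knockdown, so that *ITGB6* stood above its partner in every knockdown library and below it in every library of the other groups. *ITGA5* over *ITGA3*, 2 α chains, was 0.226 ± 0.004 in medium, 0.334 ± 0.002 with TNF-α, 0.364 ± 0.031 once 5-OH-TMT was added and 0.612 ± 0.031 with knockdown. *ITGA6* over *ITGB4*, the hemidesmosome pair, was 0.332 ± 0.045 with TNF-α and 0.221 ± 0.004 with 5-OH-TMT (exact permutation p = 0.1). The GC shares of these genes are 42.9% and 63.7%, and the part of the GC slope in this difference was not tested. *ITGA6* over *ITGB1*, whose GC shares are 42.9% and 40.0%, was 1.95 ± 0.11 with TNF-α and 1.79 ± 0.04 with 5-OH-TMT, also without overlap (exact permutation p = 0.1). Of the summed FPKM of the 5 α members, *ITGA5* made up 12.3 ± 0.6% in medium and 25.8 ± 2.8% with knockdown, while *ITGA3* went from 54.3 ± 3.4% to 42.0 ± 2.5%.

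**Figure D4:**
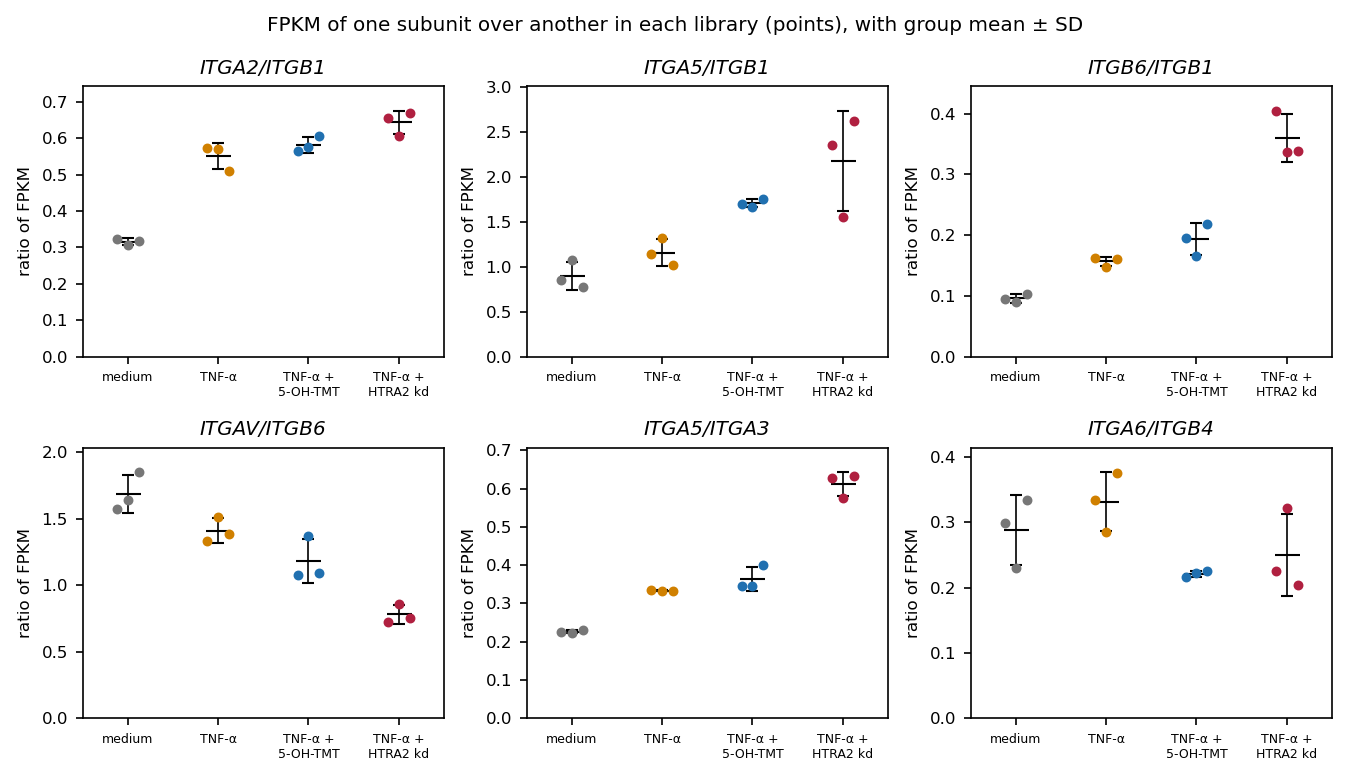
Ratio of the FPKM of named integrin chains within each library (points), with the group mean and SD (bars). *ITGA2* and *ITGB6* gain on *ITGB1* from medium (0.316 and 0.0963) to knockdown (0.643 and 0.360), and *ITGAV* over *ITGB6* drops to 0.780.

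The rest of the adhesion machinery was described through lists of related genes. Of 18 other integrin subunits 6 were tested. *ITGB8*, another partner of αV that binds latent TGF-β, rose with TNF-α (log2 0.96 ± 0.13, adjusted p = 0.00117) and again with knockdown (0.91 ± 0.13, adjusted p = 7.34e-04). It was the 1 called higher in each, against 3.22% and 9.35% of all genes. *ITGAE* (−0.43) and *ITGB5* (−0.21) were called lower with knockdown, against 8.08% of all genes, and the call of *ITGB5* (adjusted p = 0.0489) was lost when any of the 6 libraries compared was left out. Of the 11 tested among 18 other leukocyte-binding molecules, 3 were called higher with TNF-α, against 3.22% of all genes, and 4 with knockdown, against 9.35%, with 0 lower. The count with TNF-α was 1 without TNF-α library 1 or 3, where *CD47* remained, and 2 with any of the others left out. *CD47*, the integrin-associated ligand of SIRPα, rose in both (1.09 ± 0.10 and 0.73 ± 0.10), as did the complement regulator *CD55* (0.44 ± 0.09 and 0.45 ± 0.09), although the *CD55* call with TNF-α did not hold without TNF-α library 1 or 3.

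Several of the members' own ligands were among the genes called. Of 18 tested matrix ligand genes 7 were called higher and 1 lower with TNF-α, against 3.22% and 0.885% of all genes, and 11 higher and 1 lower with knockdown, against 9.35% and 8.08%. Their median log2 differences were 0.33 and 0.46, beside −0.0020 and −0.0034 over all genes. With TNF-α 4 to 7 were called higher as each library was left out, the fewest without TNF-α library 2, and the lower call, of *LAMB2*, was lost without medium library 2 or any TNF-α library. *LAMB3*, a chain of laminin-332, to which α3β1 and α6β4 bind, went from 139.98 to 276.2 FPKM with TNF-α (0.98 ± 0.10). *FN1*, which encodes fibronectin, the ligand of α5β1 and αVβ6, went from 202.4 FPKM with TNF-α to 522.5 FPKM with knockdown (1.36 ± 0.12). *COL1A1* rose by 1.23 ± 0.14 log2 with knockdown at 2.89 FPKM, and *THBS1*, which encodes thrombospondin-1, fell by 1.496 log2 from 139.2 to 48.8 FPKM. Of the 22 tested plaque and hemidesmosome genes 3 were called higher with TNF-α, against 3.22% of all genes, and 3 higher and 1 lower with knockdown, or 4 of 22 against 17.4% of all genes in either direction. With TNF-α only 1 of them, *TNS3*, was called without medium library 2 or 3 or TNF-α library 1 or 2. The lower call with knockdown, of *ITGB1BP1*, was lost without knockdown library 1, and without knockdown library 2 there were 2 lower calls. *COL17A1*, a hemidesmosome collagen that binds α6β4, was the leading one with knockdown (0.84 ± 0.08), and *TNS3*, a tensin, with TNF-α (0.62 ± 0.09). With 5-OH-TMT 0 genes of these 4 lists were called in the main limma fit, with 2 of 6, 1 of 11, 3 of 18 and 6 of 22 at an unadjusted p under 0.05, beside 20.1% of all genes. *LAMB2* was called higher with a minimum of 1 FPKM, with voom and in the fit to the groups compared, and *CD151* in the last. These fits called 1.14%, 1.31% and 5.04% of all genes.

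Over the 12 libraries, the genes whose log2 level ran closest to *ICAM1* among 11185 genes of at least 1 FPKM were *TNFAIP2* (Pearson r = 0.996), *TAP1* (0.996) and *IFNGR2* (0.995). *GBP4* (0.991), *MXD1* (0.991) and *PARP14* (0.991) ran closest to *ITGB6*, and *ECE1*, *PPP1R18* and *DDR1* (0.997 to 0.993) to *ITGA5*. These libraries form 4 groups, so the values describe likeness of pattern across groups.

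Reads of overlapping genes could enter some members. *ITGB4* overlaps *GALK1* on the opposite strand over 6225 bases, with a mean of 8.79 FPKM for *GALK1* against group means of 230.7 to 290.01 for *ITGB4*. The antisense and other genes overlapping the remaining members held at most 64 reads in any library. The strand setting of the counting is not given in the sources used here, so reads of a gene and its antisense partner could not be told apart.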

How the data were processed

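The deposited table holds FPKM per gene, made by the authors from poly(A)-selected libraries of NCM460 cells. The submitters' processing notes name CASAVA 1.8, HISAT2 2.0.4, HTSeq 0.9.1 and hg38, and gene coordinates match GENCODE 29. FPKM times gene length gave whole reads within 0.1 of a read for 100% of values, so reads could be recovered. The gene lengths deposited by the authors were used as given.

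Genes with a mean of at least 0.1 FPKM (18079) were fitted as log2(FPKM + 0.1) with limma 3.58.1 in R 4.3.3, in 1 fit to 4 groups with a trended prior, and p-values were adjusted over all of them by the Benjamini-Hochberg method. Differences on this scale understate the change of low genes. *VCAM1* came from the same fit without a minimum. The scripts were tested on simulated data. Single ratios were compared by exact two-sided permutation tests. Named list genes were the called genes with the 2 largest changes each way at a mean of at least 1 FPKM. Like genes were the 3 with the highest Pearson correlation. Members, lists and tests were chosen with earlier results of these data known. Other pseudocounts, filters, scalings and fits, voom on recovered reads, each library left out, a replicate term and a GC correction were tried as alternatives. Promoter sequences came from RefSeq (GRCh38.p14). Intervals on reads cover counting error only. Some like genes and markers are not reported here.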

Additional observations from a re-analysis of the deposited data

How the results depend on the processing

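With TNF-α the count of members called stayed at 4 or 5 under every alternative that kept all libraries, and at 3 to 4 with each library left out in turn. With 5-OH-TMT it was 0 except for 1 in the fit to the groups compared, which called 5.04% of all genes. It was 0 to 0 with each library left out. With knockdown it was 3, against 17.4% of all genes, and 3 to 4 with each library left out. It rose to 4 without a minimum (*VCAM1* added), against 8.23% of all genes. It was 5 with a minimum of 1 FPKM (27.9% of all genes) and 5 with voom on recovered reads (20.4%). With the GC correction it was 6 (24.5% of all genes), and 6 with the GC correction and the replicate block (23.3%). The members gained were *ITGA2* and *ITGB4*, and *ITGAV* with the GC correction. The alternatives with fewer genes or another test changed the adjustment too, and the cause was not tested. Libraries with the same replicate number did not deviate together (correlations −0.37 to 0.15 over 18 pairs), so the numbers were not used to pair them. With the replicate block 4, 0 and 3 members were called in the 3 comparisons, *TNS3* alone of the plaque and hemidesmosome genes was called with TNF-α, and the calls of *LAMB2* with TNF-α and *ITGB5* with knockdown were lost.

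Called members kept their direction in all 120 alternative fits and lost the call in 3, all *ITGA5* with TNF-α. Differences that were not called changed sign in 17 of 342. Both totals include fits that changed only the filter, the prior, the groups fitted or the replicate term. Those fits return the log2 difference of the main fit, so no sign could change in them. With either GC correction *ITGB4* and *ITGA3* turned to 0.036 and 0.043 with TNF-α, and *ITGB4*, *ITGA2* and *ITGAV* to −0.0059, 0.034 and 0.024 with 5-OH-TMT. With each library left out, *ITGB4* ran from −0.10 to 0.054 and *ITGA3* from −0.070 to 0.054 with TNF-α, *ITGB6* from −0.064 to 0.22 with 5-OH-TMT, and *ITGB1* from −0.012 to 0.15 with knockdown. The causes were not tested. List counts stayed within 1.5-fold in 356 of 408 alternatives. Rescaling by the median of ratios shifted every library alike, by 0.0119 log2. It could hardly move a call, and moved none among the members. Over all genes 742, 7 and 3152 were called in the 3 comparisons, against 862, 236 and 3686 with voom, 768, 127 and 3122 with a minimum of 1 FPKM, 392, 911 and 2222 in fits to the groups compared, 1099, 13 and 4424 with the GC correction, and 600, 1 and 2660 with the replicate block.

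Depth limited *VCAM1*, whose reads outside the knockdown group were at most 6 per library. With 3 libraries a group, an exact test of a single value cannot go below p = 0.1.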
